A study of Mus musculus with 3 samples.

Results

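The clustered histone genes are the 67 protein-coding genes of the GENCODE vM1 annotation of mm9 whose symbols begin with Hist1h, Hist2h, Hist3h or Hist4h, out of 22380 protein-coding genes. Of these, 55 belong to Hist1, 9 to Hist2, 2 to Hist3 and 1 to Hist4. By product, 6 encode linker histone H1, 19 H2A, 18 H2B, 11 H3 and 13 H4. The series profiled RNA polymerase II (RNAP2) and Med12, a subunit of the kinase module of the Mediator complex, by ChIP-seq in distal forelimbs of mouse embryos, with no mutation or treatment in any sample label. The sample labels give stage E12.5, while the design text of the series names a forelimb of an earlier day. There was 1 RNAP2 library, 1 Med12 library and 1 input library, and a peak list was used for the first pair only. A gene was counted as having a peak when a peak shared at least 1 bp with its span or with the interval of 1 kb on either side of its start. Because there were no replicates, counts and values are given without a test, beside the same counts over all protein-coding genes.

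Clustered histone genes supply the histones that package newly replicated DNA, and they are transcribed mainly in S phase. Most have no introns, and their messages end in a conserved stem-loop, bound by SLBP, in place of a poly(A) tail. Transcription of the clusters takes place in histone locus bodies, nuclear structures organised by NPAT, and 3′ ends are cut by a machinery that includes the U7 snRNP. Histone variants such as H2A.Z and H3.3 are encoded elsewhere in the genome and are made through the cell cycle. The distal limb bud is a growing mesenchyme in which many cells cycle, so these genes have a known use in the tissue.

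RNAP2 peaks were found at nearly every clustered histone gene. Of the 67 genes, 66 (98.5%) had an RNAP2 peak, against 45.8% of all protein-coding genes. A Med12 peak was present at 45 of them (67.2%), against 17.3% of all protein-coding genes. The same 45 genes had both peaks, against a background of 14.7%, and 1 gene, Hist1h1t, had neither, against a background of 51.7%. Counting only peaks within 1 kb of the start left 66 genes with RNAP2 and 45 with Med12, where the backgrounds were 40.0% and 8.20%. The tissue is a mixture of cells at all phases of the cycle, so a share of cells that carry a protein at a gene and the amount bound per cell cannot be told apart.

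**Figure D1:**
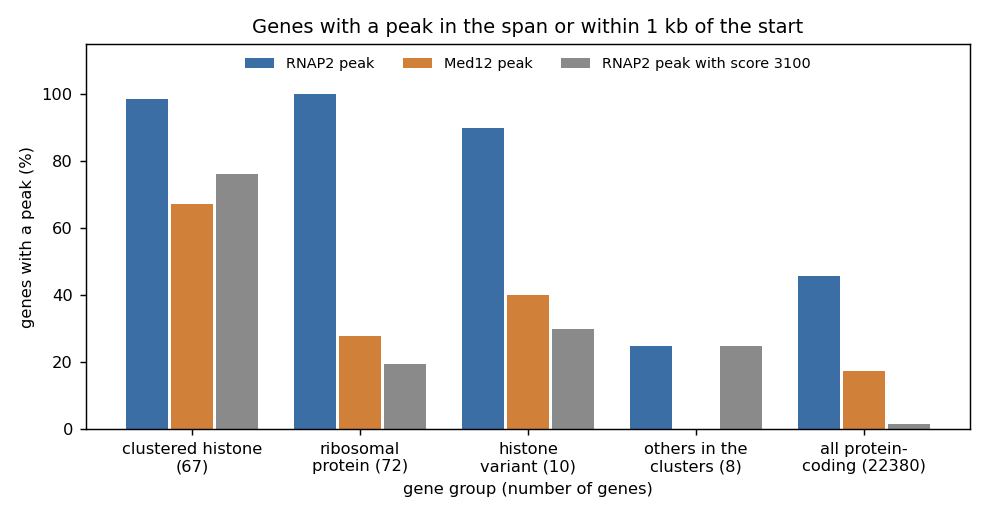
Share of genes (%, vertical axis) with an RNAP2 peak, a Med12 peak or an RNAP2 peak of score 3100, in 5 groups of genes named with their sizes on the horizontal axis. The clustered histone genes reach 98.5% for RNAP2 and 67.2% for Med12, and ribosomal protein genes reach 100.0% and 27.8%.

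The deposited score of a peak is 10 times the negative log10 of the p-value given by the peak caller, and it was read only within its own list. A score of exactly 3100 is shared by 311 of the 20479 RNAP2 peaks, with 18 peaks higher, so the peaks at 3100 were not ranked among themselves. What sets this shared value was not tested. An RNAP2 peak with this score lay at 51 of the 67 histone genes, against 1.55% of all protein-coding genes. Histone genes take 27 of the 311 peaks at this score (8.68%), while the 40 RNAP2 peaks at histone genes make up 0.195% of the list.

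Med12 peaks were more frequent where the RNAP2 score was 3100. Among the other protein-coding genes with an RNAP2 peak of score 3100, 61.6% had a Med12 peak, while 40 of the 51 histone genes with that score (78.4%) did. Within 1 kb of the start these shares were 49.2% and 78.4%. By peaks, 20 of the 27 RNAP2 peaks at histone genes with that score overlapped a Med12 peak, and 198 of all 311 (63.7%) did so. Of the 13 histone RNAP2 peaks with lower scores, 5 overlapped a Med12 peak. Every peak with 3 histone genes had 3100 and a Med12 overlap, while at peaks with 1 histone gene the difference was small. Of these, below 3100, Med12 overlapped at Hist1h4j, Hist1h4k, Hist1h4c, Hist1h4b and Hist1h1c, and not at Hist3h2ba, Hist1h1b, Hist1h4f, Hist1h2al and Hist2h4. At 3100 it overlapped at Hist1h2bm, Hist1h3i, Hist1h3e, Hist1h4h, Hist2h2aa2 and Hist4h4, and not at Hist3h2a, Hist1h1d, Hist1h4d and Hist1h2be. Of the 8953 protein-coding genes with any RNAP2 peak within 1 kb of the start, 2686 had a Med12 peak. The histone genes are short, with a median span of 530 bp and 51 of them under 1 kb. An exception is Hist1h2be, with a span of 37383 bp, which is counted among the genes at 3100 through its span and not its start. The 1849 other protein-coding genes with a span under 1 kb had an RNAP2 peak in 5.95% of cases and a Med12 peak in 1.46%. Among the 2797 other genes with a single exon the shares were 10.3% and 2.82%, where 61 of the 67 histone genes have a single exon.

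The genes lie in 7 stretches when neighbours more than 200 kb apart are split. The Hist1 genes fall into 3 stretches on chromosome 13 plus Hist1h2al, which lies alone at chr13:51298057-51298434. The first stretch, Hist1-1, at chr13:21807632-21929399, holds 18 genes with 10 RNAP2 and 10 Med12 peaks, and all 18 genes had RNAP2 and 15 had Med12. The second, Hist1-2, at chr13:22126982-22135545, holds 5 genes with 2 RNAP2 and 3 Med12 peaks, and all 5 genes had both. The third, Hist1-3, at chr13:23622919-24026720, holds 31 genes with 19 RNAP2 and 10 Med12 peaks, and 30 genes had RNAP2 and 16 had Med12. Hist2-1 at chr3:96023839-96082924 holds the 9 Hist2 genes, with 5 peaks of each kind. Hist3-1 at chr11:58762413-58770176 holds 2 genes, and Hist4h4 lies alone at chr6:136752589-136752900.

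The peaks in these stretches lay at the genes. RNAP2 peaks covered 22.1% of Hist1-1 and 11.7% of Hist1-3, and Med12 peaks covered 9.99% and 3.09% of them. Of the 40 RNAP2 and 29 Med12 peaks in the 7 stretches, 0 lay away from a histone gene. The stretches hold 8 other protein-coding genes, of which 6 had no peak of either protein. These were the iron regulator Hfe, the solute carriers Slc17a1, Slc17a2, Slc17a3 and Slc17a4, and Trim38. The other 2, Trim17 and Gm17658, lie under RNAP2 peaks that also cover Hist3h2a and Hist1h4d, so their own share of the signal cannot be told apart from that of the histone gene. The histone pseudogenes Hist2h3c2, Hist3h2bb-ps and Hist1h2aj lie in the same way under RNAP2 peaks counted for Hist2h2aa2, Hist3h2a and Hist1h2bm, and the Med12 peaks of Hist2h2aa2 and Hist1h2bm reach into their pseudogenes as well.

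**Figure D2:**
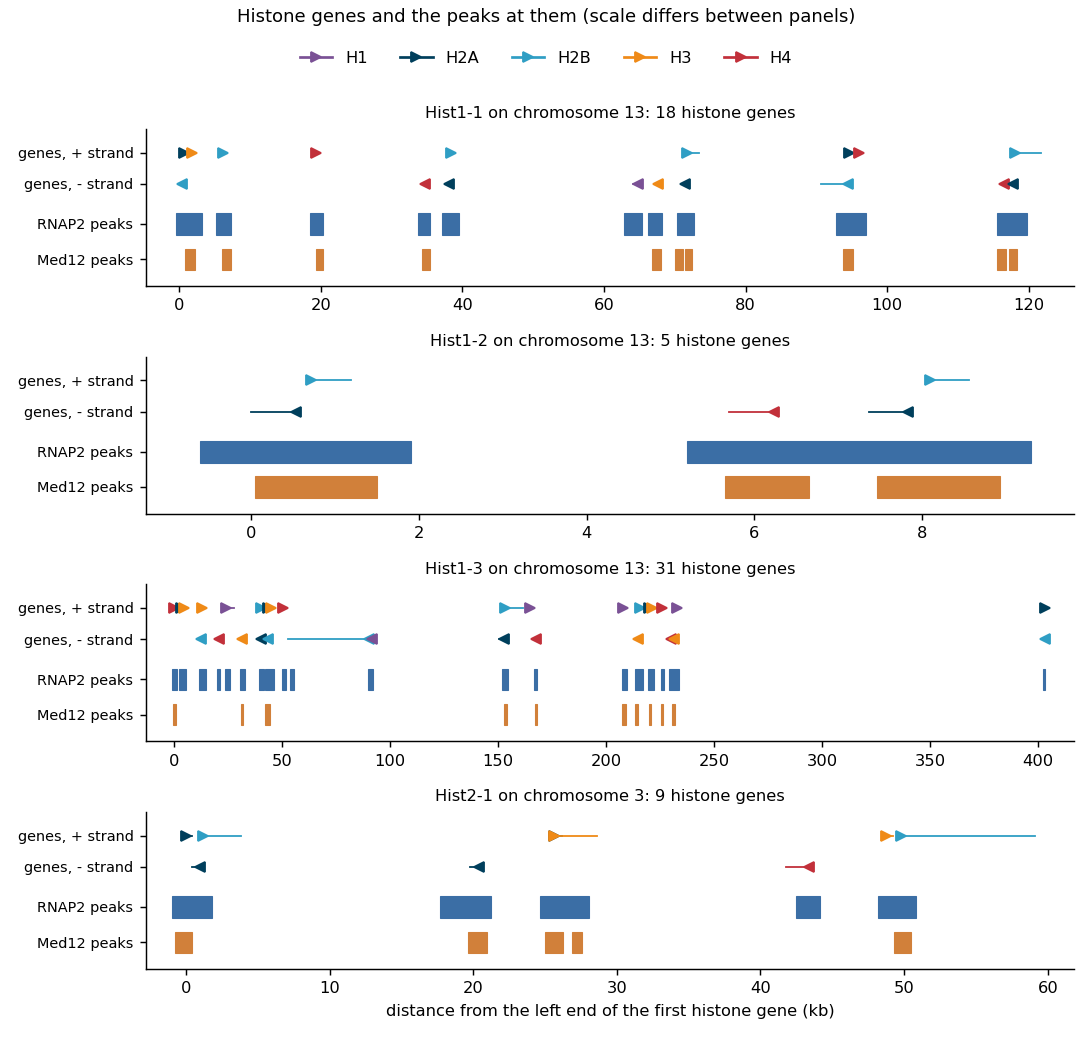
Maps of 4 stretches, with the horizontal axis giving the distance in kb from the left end of the first histone gene, at a scale that differs between panels. Arrowheads mark gene starts by strand and histone type, blue bars are RNAP2 peaks and orange bars Med12 peaks. Only peaks counted for a histone gene were drawn, and the separate count found no other peak in these 4 stretches.

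The sequences that lie before the starts are shown for 5 regions, 4 chosen as pairs of like type that differ in their peaks and 1 for its H4 motif. They are mm9 sequence read 5′ to 3′, and capitals mark the CCAAT box (CCAAT), the octamer bound by POU2F1 (ATTTGCAT), the TATA box (TATAAA), the H1 box (AAACACAA) and a motif typical of H4 promoters (GGTCCG), on either strand. The first pair are the stretches between the starts of an H2A and an H2B gene, chr13:22127513-22127689 between Hist1h2ah and Hist1h2bk, and chr13:24026056-24026300 between the testis genes Hist1h2ba and Hist1h2aa, both on the plus strand. The second is the inner 245 of the 305 bp between the starts, without 30 bp at each end, and the first is whole.
Hist1h2ah to Hist1h2bk: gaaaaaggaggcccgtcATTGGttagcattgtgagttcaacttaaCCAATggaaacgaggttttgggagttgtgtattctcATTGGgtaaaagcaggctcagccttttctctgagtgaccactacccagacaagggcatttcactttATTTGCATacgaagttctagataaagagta
Hist1h2ba to Hist1h2aa: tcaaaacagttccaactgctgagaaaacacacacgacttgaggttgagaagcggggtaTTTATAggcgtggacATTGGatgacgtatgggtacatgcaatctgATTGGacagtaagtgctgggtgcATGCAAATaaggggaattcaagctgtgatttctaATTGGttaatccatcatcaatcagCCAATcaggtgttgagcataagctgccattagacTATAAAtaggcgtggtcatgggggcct
The second pair are the 150 bp before the starts of the testis linker histone gene Hist1h1t (chr13:23787530-23787679, plus strand) and of the somatic linker histone gene Hist1h1c (chr13:23830526-23830675, plus strand).
Hist1h1t: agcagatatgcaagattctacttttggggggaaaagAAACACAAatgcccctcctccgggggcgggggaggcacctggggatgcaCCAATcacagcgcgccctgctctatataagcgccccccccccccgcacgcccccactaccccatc
Hist1h1c: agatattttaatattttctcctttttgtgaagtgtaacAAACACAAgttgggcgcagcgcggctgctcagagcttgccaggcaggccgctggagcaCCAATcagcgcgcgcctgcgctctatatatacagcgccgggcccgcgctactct
The last are the 150 bp before the start of the H4 gene Hist1h4h (chr13:23622769-23622918, plus strand).
Hist1h4h: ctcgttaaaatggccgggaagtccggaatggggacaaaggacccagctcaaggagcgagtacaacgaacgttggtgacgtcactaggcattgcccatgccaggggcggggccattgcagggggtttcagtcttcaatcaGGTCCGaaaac

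The linker histone genes ranged from no peak to the shared score of 3100. Linker histones bind the DNA between nucleosomes. Hist1h1d had an RNAP2 peak of score 3100, and Hist1h1a lay under such a peak together with Hist1h4a and Hist1h3a. Hist1h1c had an RNAP2 score of 2969.69 and Hist1h1b of 2727.73. Hist1h1e had 2339.26, in a peak that also covers the annotated start of Hist1h2be. Med12 peaks were found at 2 of the 6 linker histone genes, Hist1h1c with a score of 114.91 and Hist1h1a with 59.26. The peak counted for Hist1h1a lay 897 to 1911 bp before its start and was shared with Hist1h4a and Hist1h3a.

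Hist1h1t encodes the linker histone of spermatocytes. It was the 1 histone gene without a peak, its nearest RNAP2 peak lay 1732 bp from its start and its nearest Med12 peak 2263 bp away, and both of these are the peaks of Hist1h4c. The sequences printed for Hist1h1t and Hist1h1c both hold an H1 box and a CCAAT box. Over 250 bp before to 50 bp after the start, the H1 box was found at 4 of 6 H1 genes, Hist1h1b, Hist1h1c, Hist1h1e and Hist1h1t, against 1.60% of all protein-coding genes. The letters of this box are thus present both at a gene without a peak and at genes with RNAP2.

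H2A and H2B genes often share a promoter region. There were 13 pairs of histone genes that start back to back within 1 kb, 12 of them an H2A and an H2B gene and 1 an H2B and an H3 gene. The starts of a pair were 167 to 692 bp apart, with a median of 240 bp. In all 13 pairs a single RNAP2 peak was counted for both genes, and 9 pairs shared a Med12 peak. Of the 26 paired genes 18 had a Med12 peak, and of the 41 others 27 did.

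The pairs without Med12 were Hist1h2ak with Hist1h2bn, Hist1h2ae with Hist1h2bg, Hist1h2bh with Hist1h3f, and Hist1h2ba with Hist1h2aa. The first 3 of these had an RNAP2 score of 3100. The pair Hist1h2ba and Hist1h2aa, which encode the testis histones TH2B and TH2A, shared an RNAP2 peak of 924 bp with a score of 279.4. This was the narrowest and lowest RNAP2 peak at the histone genes. The peak ended just before the annotated start of Hist1h2aa, so that gene was counted through the 1 kb before its start. The printed inner part of the sequence between the starts of this pair holds CCAAT boxes, an octamer and TATA boxes. The sequence between Hist1h2ah and Hist1h2bk, where RNAP2 scored 3100 and Med12 90.9, holds CCAAT boxes and an octamer. In the window from 250 bp before to 50 bp after the start, Hist1h2ah and Hist1h2bk have TATAAA too. That match is not wholly inside the printed stretch, which ends at the annotated starts.

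In Hist1, the Med12 scores of the pairs spanned most of the range found at histone genes. Hist1h2ag and Hist1h2bj shared a Med12 peak of score 148.12. Hist1h2bf and Hist1h2ad shared one of 121.71 with the neighbouring Hist1h3d, and that peak was 2263 bp wide. Hist1h2ah and Hist1h2bk followed with 90.9, and Hist1h2ac and Hist1h2bc with 86.5. The pair Hist1h2bl and Hist1h2ai had 74.89, shared with Hist1h3h, and that peak lay 412 to 1911 bp before the start of Hist1h2bl. Lower values were 72.53 at Hist1h2bq and Hist1h2ao, 67.86 at Hist1h2ap and Hist1h2br, and 53.5 at Hist1h2an and Hist1h2bp. In every pair with Med12 the RNAP2 score was 3100.

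Among H2A and H2B genes outside these pairs, Hist1h2bm had an RNAP2 score of 3100 and a Med12 score of 131.56. Hist1h2ab had an RNAP2 score of 3100 and a Med12 score of 70.26, with both peaks shared with Hist1h3b. Hist1h2bb and Hist1h3c shared an RNAP2 peak of 3100, and the Med12 peak there, of score 46.96, was counted for Hist1h3c alone. The record of Hist1h2be is 37383 bp long and met 2 RNAP2 peaks, 1 of score 3100 at its coding exon and 1 of 2339.26 at its annotated start beside Hist1h1e. Hist1h2af shared an RNAP2 peak of 2241.55 with Hist1h3g and had no Med12. Hist1h2al, alone on its part of chromosome 13, had an RNAP2 score of 690.85 and no Med12.

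All 11 H3 genes had RNAP2 and 9 had Med12. The RNAP2 score was 3100 at 10 of them, with Hist1h3g at 2241.55 the exception. Hist1h3d was counted with a Med12 score of 121.71, from the peak shared with Hist1h2bf and Hist1h2ad. That peak lay 352 to 2614 bp before the start of Hist1h3d. Among Med12 peaks over the start of an H3 gene in Hist1, that of Hist1h3i was the highest, at 86.78. Hist1h3h had 74.89 and Hist1h3a 59.26. Hist1h3b was counted with 70.26, from the peak shared with Hist1h2ab that lay 493 to 1429 bp before the start of Hist1h3b. Hist1h3c had 46.96 and Hist1h3e 43.05, both under 50. Hist1h3f and Hist1h3g had no Med12 peak.

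H4 genes had more RNAP2 scores under 3100 than the other core types. All 13 had RNAP2 and 10 had Med12, but 6 of the 13 were under 3100, against 3 of 19 H2A, 2 of 18 H2B and 1 of 11 H3 genes. The values under 3100 were 2796.98 at Hist1h4c, 2728.47 at Hist1h4k, 2202.31 at Hist1h4j, 1409.19 at Hist1h4f, 1388.52 at Hist1h4b and 640.83 at Hist2h4. Each of these 6 was the single clustered histone gene in its peak, and so were Hist1h4d, Hist1h4h and Hist4h4, which had 3100. Score and the number of genes under a peak moved together, as the 7 peaks with 3 histone genes all had 3100, against 10 of 13 with 2 genes and 10 of 20 with 1 gene.

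Med12 scores of H4 genes ran from the lowest to the highest at any histone gene. Hist4h4 had 211.32, at rank 517 of the 10634 Med12 peaks, and Hist1h4h had 143.42. Hist1h4k had 69.6 and Hist1h4i 68.23. Hist1h4m was counted with 72.53, from the peak shared with Hist1h2bq and Hist1h2ao that lay 790 to 2230 bp before the start of Hist1h4m. Hist1h4n was counted with 67.86, from the peak shared with Hist1h2ap and Hist1h2br that lay wholly before the start of Hist1h4n. A further Med12 peak, over the start of Hist1h4n, scored 62.29. Hist1h4c had 54.81, and Hist1h4a was counted with 59.26, from a peak 527 to 1541 bp before the start of Hist1h4a. Hist1h4b had 48.07 and Hist1h4j 41.84. No Med12 peak was found at Hist1h4d, Hist1h4f and Hist2h4. The letters GGTCCG were found at 12 of 13 H4 genes, with Hist1h4a the exception, against 9.77% of all protein-coding genes. They occur in the printed sequence of Hist1h4h, which had an RNAP2 score of 3100 and Med12.

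**Figure D3:**
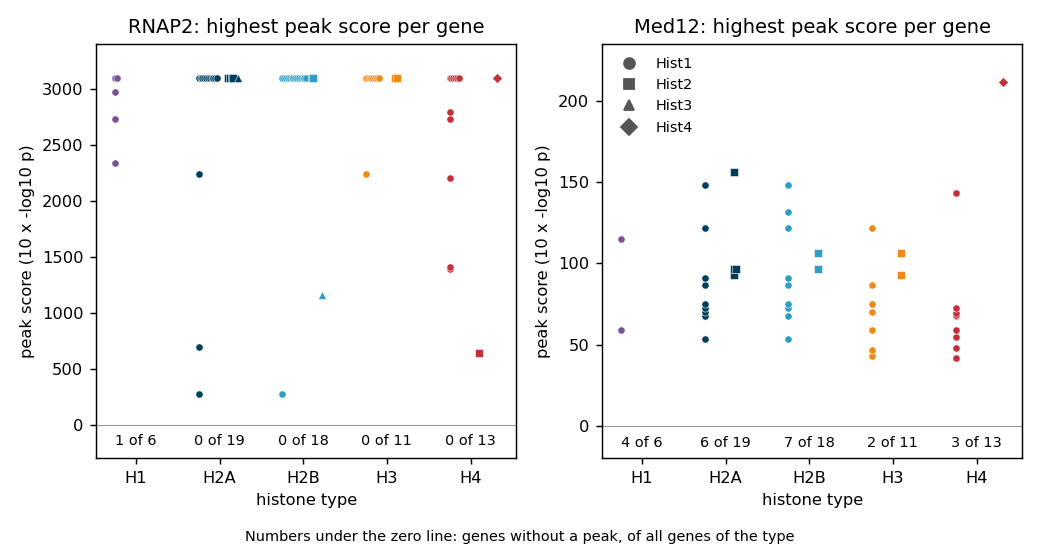
Score of the highest RNAP2 peak (left) and Med12 peak (right) at each histone gene, by histone type on the horizontal axis, with marker shapes for Hist1 to Hist4 and equal scores drawn side by side. RNAP2 scores gather at 3100 in every type and H4 genes spread down to 640.83, while Med12 scores lie between 41.84 and 211.32.

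The Hist2 genes had both proteins at 8 of 9 members. Hist2h2ab, Hist2h2ac and Hist2h2be shared an RNAP2 peak of score 3100 and a Med12 peak of 96.43. Hist2h2aa2 had 3100 and a Med12 score of 156.12. Hist2h2aa1 and Hist2h3c1 shared 3100 and a Med12 score of 92.58. Hist2h3b and Hist2h2bb shared 3100 and a Med12 score of 106.65. The ninth gene, Hist2h4, had 640.83 and no Med12. A further Med12 peak at Hist2h3c1 scored 67.07. The peak of 96.43 lay 572 to 1690 bp after the start of Hist2h2ac and 813 to 1931 bp before that of Hist2h2be. The peak of 106.65 lay 578 to 1760 bp after the start of Hist2h3b. The highest Med12 score per gene, with shared peaks counted for each gene, had a median of 96.43 over the 8 genes. In Hist1 this median over genes with Med12 was 72.53. Hist2h2aa2, Hist2h2aa1 and Hist2h3c1 lie in partly repeated sequence.

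Hist3 had RNAP2 without Med12. Hist3h2a had an RNAP2 score of 3100 and Hist3h2ba of 1159.71, and the nearest Med12 peak lay 408738 bp from the start of Hist3h2a and 414512 bp from that of Hist3h2ba. Among the 22 histone genes without Med12, the distance from the start to the nearest Med12 peak had a median of 6458 bp and a minimum of 1094 bp. An RNAP2 score of 3100 was found at 11 of these 22 genes and at 40 of the 45 with Med12.

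RNAP2 peaks at histone genes were wide. Their median width was 2525.5 bp, with a range of 924 to 4668 bp, against 1460 bp for peaks within 1 kb of any protein-coding start and 1328 bp over the list. A width over 2 kb was found for 28 of the 40 peaks (70.0%), against 15.7% of the list. The width went with the number of histone genes covered, with medians of 1926 bp for 20 peaks at 1 gene, 2608 bp for 13 at 2 genes and 4114 bp for 7 at 3 genes. Peaks of score 3100 over the whole list had a median width of 2658 bp, so wide peaks and this score go together in the list too. The 3 widest were those of Hist1h4a, Hist1h3a and Hist1h1a at 4668 bp, of Hist1h2bq, Hist1h2ao and Hist1h4m at 4325 bp, and of Hist1h4n, Hist1h2ap and Hist1h2br at 4221 bp.

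Med12 peaks at histone genes were narrower and nearly always nested. The median width of the 29 peaks was 1211 bp, against 972.5 bp over the Med12 list. All 29 overlapped an RNAP2 peak and 26 lay wholly inside it. The same counts were not made over the whole Med12 list, so this nesting has no background beside it. The RNAP2 peaks at the histone genes had a median width of 2525.5 bp. Their scores had a median of 72.53, against 66.5 for Med12 peaks within 1 kb of a protein-coding start and 56.8 for the list, and their median rank was 3372 of 10634. Of the 29, 8 scored at least 100 and 5 scored under 50.

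Most coding sequences lay under an RNAP2 peak. The coding sequence lay wholly inside an RNAP2 peak for 63 genes and inside a Med12 peak for 27, and the start lay inside them for 65 and 34 genes. The same counts were not made over all protein-coding genes. The histone genes are short, with a median span of 530 bp against a median RNAP2 peak width of 2525.5 bp. Of the genes, 19 were the single clustered histone gene in their RNAP2 peak, and at 6 of these the peak also covered another annotated gene. For the other 13, the peak began 559 to 1393 bp before the start, with a median of 675 bp. It ended 590 to 2051 bp after the start, with a median of 1033 bp. Its centre lay downstream of the start in 11 of the 13, and the median position of the centre over the 13 was 114 bp after the start. Of these 13 genes, 7 were also alone in their Med12 peak, whose centres lay at positions from -121.5 to 543 bp relative to the start, with a median of 219.5 bp.

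**Figure D4:**
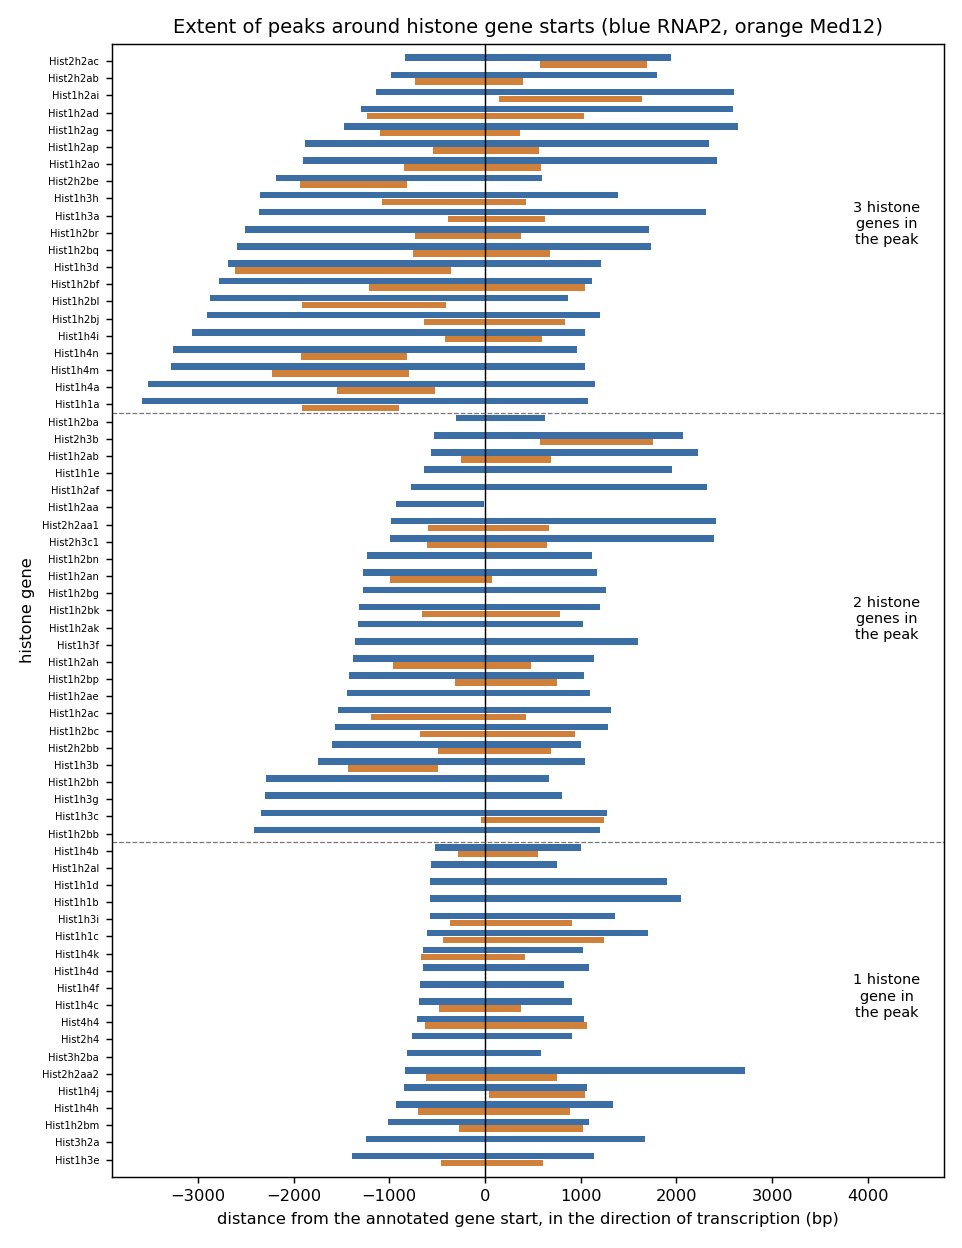
Extent of the highest RNAP2 (blue) and Med12 (orange) peak of each histone gene, in bp from the annotated start in the direction of transcription on the horizontal axis, with 1 row per gene and groups by the number of histone genes under the RNAP2 peak. Hist1h2be, with 2 RNAP2 peaks, and Hist1h1t, with none, are left out, and peaks over 3 genes reach up to 4668 bp.

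The 3′ stem-loop was sought as DNA in the 200 bp beyond the stop codon, as the loop TTTC between complementary arms of 6 bases. It was found at 46 of 67 histone genes (68.7%), against 0.264% of all protein-coding genes. That background of 59 genes includes the 46 histone genes, and 13 other genes had a match. The stem-loop has 3 forms at the histone genes, shown because they are the mark of histone messages, with the loop in capitals.
Stem-loop of 36 genes of the types H1, H2A, H2B and H3: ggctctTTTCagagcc
Stem-loop of 8 H4 genes: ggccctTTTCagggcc
Stem-loop of Hist1h4b and Hist1h4j: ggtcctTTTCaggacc
The stem-loop began 24 to 59 bp after the stop codon, with a median of 32 bp. Of the 46, 45 lay inside an RNAP2 peak, with the testis gene Hist1h2aa the exception, and 22 lay inside a Med12 peak. For the 10 such genes among the 13 with no other annotated gene in their peak, the RNAP2 peak ended 137 to 1263 bp beyond the stem-loop. The median was 662.5 bp, and the peaks of the 13 genes began a median of 675 bp before the start. The 21 genes without a match include Hist1h1t, Hist2h4, Hist1h4a and Hist1h4i, and the search says only that these letters are not in that window.

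Promoter elements differed between the histone types. Starts were taken as annotated, and at 9 genes the start is the coding start. At Hist1h2be the start lies 35168 bp before the coding start and at Hist2h3c1 1197 bp before it, so these windows may not be their promoters. In the window from 250 bp before to 50 bp after the start, on either strand, CCAAT was found at 85.1% of histone genes against 37.9% of all protein-coding genes. All H1, H2A and H2B genes held it, and 30.8% of H4 genes did. TATAAA was found at 56.7% against 13.4%, and at 6.63% of genes with RNAP2 within 1 kb of the start. The octamer ATTTGCAT was found at 15 genes (22.4%, against 1.72%), of which 7 encode H2A and 8 H2B. Among them are the pairs Hist1h2ac with Hist1h2bc, Hist1h2ae with Hist1h2bg, Hist1h2ah with Hist1h2bk, Hist1h2ba with Hist1h2aa, and Hist2h2ac with Hist2h2be. The windows of such a pair overlap, so the same letters can count for both genes. The GC content of the window had a median of 46.0%, against 55.0% for all protein-coding genes and 61.3% for genes with RNAP2 near the start.

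Histone genes with and without Med12 held these elements in similar shares, and these are descriptions of 45 and 22 genes. CCAAT was found in 82.2% and 90.9% of them, TATAAA in 57.8% and 54.5%, the octamer at 9 of 45 and 6 of 22 genes, and the stem-loop in 68.9% and 68.2%. The ratio of observed to expected CpG was 0.807 with Med12 and 0.603 without.

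**Figure D5:**
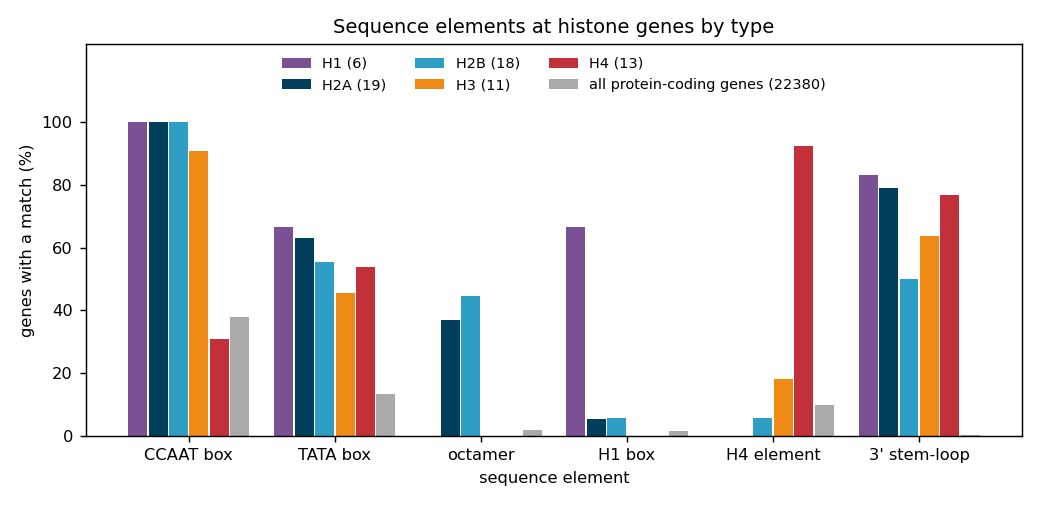
Share of genes (%, vertical axis) that hold each of 6 sequence elements (horizontal axis), by histone type and for all protein-coding genes. The octamer is found only at H2A and H2B genes among the histone types, and the H4 motif GGTCCG at 92.3% of H4 genes.

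Near-identical copies limit some of these values. Of the 32-base words in a gene and the 1 kb before it, a median of 27.6% occurred more than once in mm9. Over 90% of the words were repeated for 6 genes, Hist1h2ao, Hist1h2ap, Hist1h2bq, Hist1h2br, Hist1h4m and Hist1h4n, and the other 61 were at 49.7% or lower. An exact inverted repeat of 10523 bp, at chr13:21893127-21903649 and chr13:21924031-21934553, holds 4 of these 6. In the RNAP2 peaks at these 6 genes 96.8% and 96.2% of the 50-base words were repeated, so a read of that length there cannot be told apart between the copies, and the values of these 6 genes are uncertain. Peaks in Hist2 were also partly repeated by this measure, with 53.7% of the words for RNAP2 and 64.6% for Med12 at Hist2h2aa2. At Hist2h2aa1 and Hist2h3c1 the shares were 56.3% for RNAP2 and 65.6% for Med12, so the scores of these 3 genes carry the same doubt. Without these 6 genes, 60 of 61 had RNAP2 and 39 of 61 had Med12. Repeated words took a median of 32.1% at genes with Med12 and 17.5% at those without, and the part of this in the Med12 count was not tested.

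Other histone and growth genes give a scale for these counts. Of 10 genes for histone variants, 9 had RNAP2 and 4 had Med12. An RNAP2 score of 3100 was found at 3 of them, namely H2afx, H2afz and H3f3b. H3f3a had 2350.44, the centromeric variant Cenpa 1382.61 and H2afv 987.82. Within 1 kb of the start, 8 variant genes had RNAP2 and 2 had Med12. Both peaks of H3f3b and the Med12 peak of H3f3a were counted through the span and not the start. H1f0 was listed too but not found by that symbol. H2afj, which lies next to Hist4h4, had no peak. All 72 ribosomal protein genes had RNAP2, 20 (27.8%) had Med12 and 14 (19.4%) had an RNAP2 score of 3100, with a median peak width of 1702 bp at their starts.

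The genes that act on the histone genes mostly had an RNAP2 peak, and 0 of the 28 reached a score of 3100. Of 9 genes for their transcription 8 had RNAP2 and 5 had Med12. Npat, which encodes the organiser of the histone locus body, had an RNAP2 score of 1125.73, and Casp8ap2, for the NPAT partner FLASH, had 1136.27. Pou2f1, for the octamer factor, had an RNAP2 score of 243.26 and a Med12 score of 162.98, and Hinfp, for an H4 promoter factor, had 411.1 and 52.36. Ccne1, for cyclin E1, had no peak. All 11 genes for 3′ end processing had RNAP2 and 1, the cap-binding gene Ncbp2, had Med12, at 105.66. Slbp had an RNAP2 score of 1640.23 and Lsm11, for a U7 snRNP subunit, 49.41. All 3 genes for histone mRNA decay and 4 of 5 for histone chaperones had RNAP2, and 0 of these 8 had Med12. The chaperone gene Nasp had 2454.28 and Asf1b had no peak.

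Marker genes of the labelled tissue had peaks. All 10 limb mesenchyme genes had RNAP2 and 6 had Med12, and among them Msx1 and Hoxa11 had an RNAP2 score of 3100. Of 4 genes each for other cells, RNAP2 was found at 0 for ectoderm, 1 for muscle, 2 for endothelium and 0 for blood, and Med12 at 1, the ectoderm gene Trp63. None of 4 genes of other organs had a peak of either protein.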

How the data were processed

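RNAP2 and Med12 ChIP-seq of distal forelimb cells was used, with 1 library per antibody and no replicates; the input had no peak list here. After the first base was trimmed, the authors aligned reads to mm9 (Bowtie), discarded duplicates and used MACS 1.4.1 for peak calling; the stated settings name no control library. The score deposited by the authors is the −log10 p-value of a peak multiplied by 10. The lists hold peaks with scores under 50, below the stated threshold of the peak caller, and these were kept. The lists hold no counts, so the reads behind a peak are not known from them and no counting error could be given.

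Starts were changed from 0-based to 1-based. Overlaps of at least 1 bp with GENCODE vM1 genes were found in Python 3.11.15 with numpy 2.4.6, checked on simulated peaks and against bedtools 2.31.1. Repeated words and motifs were read from mm9 with pysam 0.24.0 and numba 0.67.0, and figures drawn with matplotlib 3.10.9. Genes named were set by a rule: the members of Hist2, Hist3 and Hist4, those with Med12 or without RNAP2, the highest RNAP2 score by type and Hist1 stretch, the 3 widest peaks and the genes of the lists. Other members were named after their values were seen. The members and lists were chosen with earlier results of these data known, and the motifs AAACACAA and GGTCCG after the sequences were seen.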

Additional observations from a re-analysis of the deposited data

How the results depend on the processing

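Of 112 values under 10 alternatives, 102 counts stayed within 1.5 times the value reported, and 9 counts moved by more than that or to 0. The remaining value is the repeated share, given below. Many of these values rest on the same genes and peaks, and a reversal was not defined for such counts. Requiring a score of at least 100 left 12 histone genes with Med12, 12 with both proteins and 12 with Med12 within 1 kb of the start, from 8 Med12 peaks, while the counts over all protein-coding genes fell to 944 with Med12 and 859 with both. The histone genes with neither peak numbered 0 with a window of 5 kb, 5 when the centre of the peak had to lie in the interval and 2 with the gene span alone. The median repeated share was 22.1% with words of 50 bases. Leaving out the 6 genes in repeated sequence was chosen after seeing the data. No paired analysis was possible because there was a single library per antibody. Depth is not in the lists, so a gene without a peak was not detectably bound at this depth and threshold.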
